A study of Mus musculus with 14 samples.

Results

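The tumours described here are thymic lymphomas, T cell tumours that fill the thymus, from mice that carried 1 intact and 1 lost copy of Hif1a (HIF1a+/-, 5 tumours) or 2 intact copies (HIF1a+/+, 5 tumours). They are 10 of the 14 arrays of the series, chosen by the genotype in each title, and the other 4 came from mice with a knock-in allele over a normal one (HIF1aKI/+, numbered 1, 3, 4 and 5). Every mouse of the 3 groups also carried the R270H mutation of p53 on both chromosomes (p53R270H/R270H) on a mixed C57BL/6-129/SvEvTac background, so the HIF1a+/+ group is p53 mutant and not normal tissue. Mice were kept until breathing became laboured, and pieces of tumour were stored in RNAlater; age at death, sex, litter, the site of each piece and the change carried by the knock-in allele are not given in the labels used here. The stated purpose was to look for expression differences behind altered tumour onset and incidence. Each tumour was a biological replicate measured on 1 Affymetrix array, with a log2 level for each probe set, so precision is limited by how many arrays each group holds.

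HIF-1 is a transcription factor made of an oxygen-regulated subunit, encoded by Hif1a, and a stable partner. When oxygen is scarce the regulated subunit escapes degradation, and the pair binds the hypoxia response element, whose core reads ACGTG or GCGTG, near genes of glycolysis, vessel growth and iron handling. Mutant p53 drives thymic lymphoma readily in mice, and the thymus is a poorly oxygenated organ in which developing T cells depend on Notch, cytokine and T cell receptor signals.

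The 14 arrays were alike in scale. Their medians lay between 7.91 and 8.03. Levels fell into a low and a high mode, with a density minimum at 4.85, and a gene was called expressed when its mean over the 14 arrays reached that boundary, which left 7166 of 10254 genes. All 13 measured T lineage marker genes were expressed, and none was below the boundary in all tumours. Correlations between arrays had the same median within and between genotypes (0.962). Xist read 12.7 in HIF1a+/- tumour 1, 12.6 and 11.6 in HIF1a+/+ tumours 3 and 5 and 11.97 in HIF1aKI/+ tumour 1, and at most 3.85 in the other 10, so each genotype held tumours with and without it. Among tumours low in Xist, the Y-linked gene Eif2s3y was lowest in HIF1a+/- tumour 3 (7.81) and HIF1a+/+ tumours 2 (8.92) and 4 (7.46).

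Hif1a transcript did not separate HIF1a+/- from HIF1a+/+ tumours. On its brightest probe set the 5 HIF1a+/- tumours averaged 12.55 ± 0.22 (SD) and the 5 HIF1a+/+ tumours 12.68 ± 0.26 (SD), a difference of -0.13 (exact permutation test, two-sided, p = 0.452 over 252 assignments), and the difference was 0.01 when the probe sets of the gene were averaged. For the 4 HIF1aKI/+ tumours the mean was 12.02 ± 0.22 (SD), and all 4 (11.75 to 12.25) lay below every HIF1a+/+ tumour (12.44 to 13.04) but not below every HIF1a+/- tumour (12.24 to 12.82). On another expressed probe set they lay below both groups, at 6.51 to 9.005 against a lowest HIF1a+/- level of 9.02. The deposited values do not show which part of the transcript the lost copy removed, so this checks the genotype labels only weakly. Of the 50 measured genes flanking Hif1a (25 on each side), 36 were expressed. Of the 50, expressed or not, 6 had an unadjusted p under 0.05. That level was reached by 3.64% (lower) and 4.3% (higher) of all measured genes, and by 9.7% of all expressed genes in either direction. Of the flanking genes 0 separated the groups, near the share of such genes among all expressed genes (1.65%).

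Across the expressed genes, 118 of 7166 (1.65%) had groups that did not overlap, meaning that every HIF1a+/- tumour lay on the same side of every HIF1a+/+ tumour. In 46 genes (0.642%) the HIF1a+/- tumours were lower and in 72 (1.0%) they were higher. With no filter on level, 76 of 10254 genes (0.741%) were lower and 75 (0.731%) higher, 30 and 3 of them below the boundary. In a limma model fitted over all 10254 genes, 2 genes passed a Benjamini-Hochberg adjusted p of 0.05, Stab1 and Dhx15, and both fell in HIF1a+/- tumours (0.0195% of genes); 0 rose. At an unadjusted p under 0.05 the model gave 373 lower (3.64%) and 441 higher genes (4.3%), and 695 of the expressed genes in either direction (9.7%), 110 of them without overlap. The split of the 118 genes depended on scaling, since 61.0% were higher as deposited, 52.9% after quantile normalization and 41.0% after each array was centred on its median. The median difference over all expressed genes was 0.01 as deposited and -0.04 after centring.

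**Figure D1:**
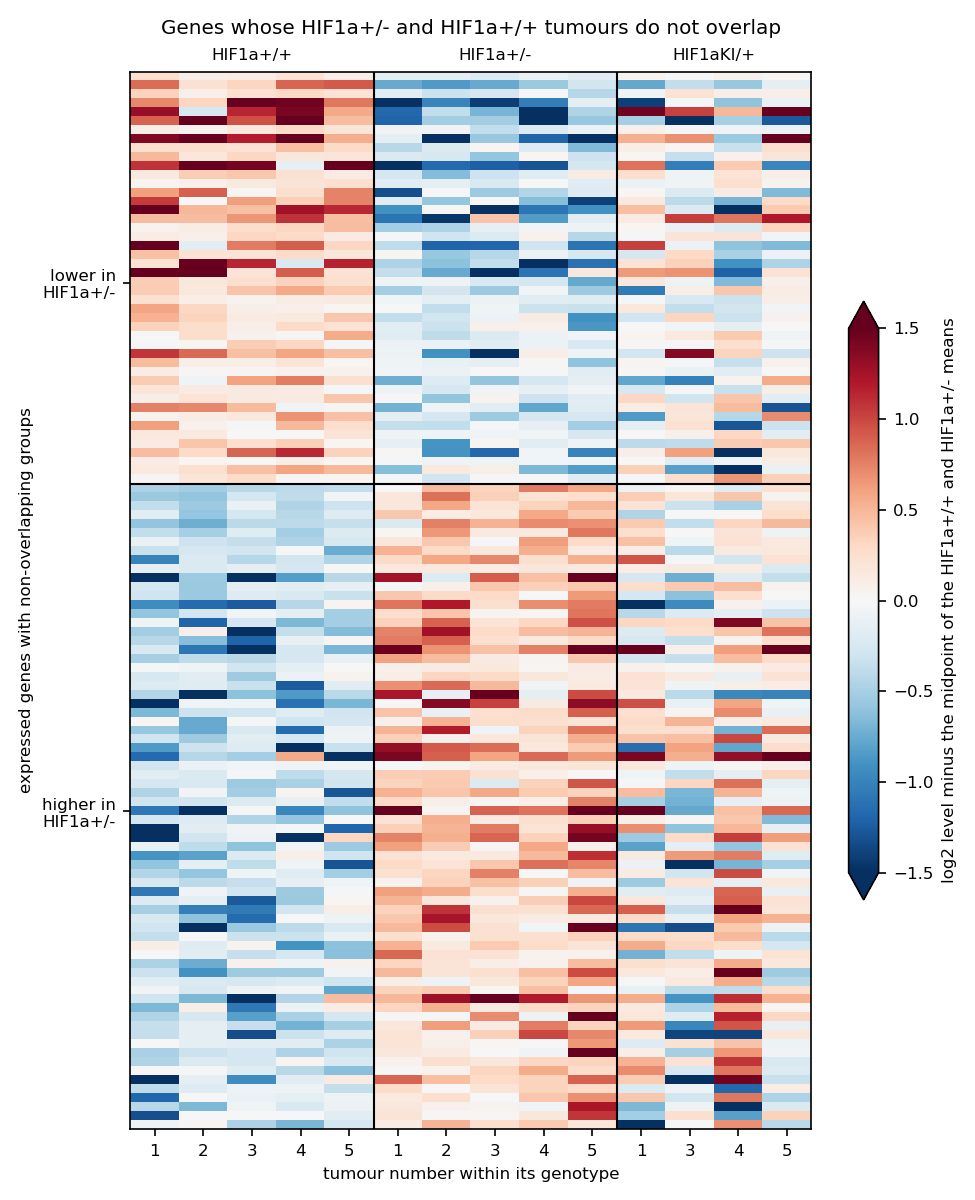
Heat map of the 118 expressed genes whose HIF1a+/- and HIF1a+/+ tumours do not overlap. Each row is a gene, ordered by its limma p within direction, and each column is a tumour; colour is the log2 level minus the midpoint of the HIF1a+/+ and HIF1a+/- means, limited to 1.5 either way. The 46 upper rows are lower and the 72 lower rows are higher in the 5 HIF1a+/- tumours by the choice of genes, while the 4 HIF1aKI/+ columns, which the choice did not use, hold both colours in most rows.

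Most of these differences were small and sat on a narrow spread. The 46 lower genes had a median difference of -0.55 and a median pooled within-group SD of 0.214, and the 72 higher genes had 0.71 and 0.297, against a median SD of 0.463 over all expressed genes. Genes of wide spread seldom separate 5 tumours from 5, so this narrowness belongs to the choice itself. In 15 lower and 17 higher genes the means differed by 1 or more on the log2 scale, and in 19 and 15 by under 0.5. The gap between the nearest tumours of the groups had a median of 0.07 for lower and 0.10 for higher genes and reached 0.2 in 9 and 20. At the edge of the rule stood Fam126a (gap 0.0034) and Cct6a (0.0035) among lower and Gps2 (0.0004) and Papolg (0.0023) among higher genes, and just outside it Aacs (-0.0010, a negative gap being an overlap), Adam15 (-0.0011), Cnot8 (-0.0013) and Icam2 (-0.0020), all named for their place at the edge. Another 36 genes on the lower side and 52 on the higher side had exactly 1 pair of tumours out of order.

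**Figure D2:**
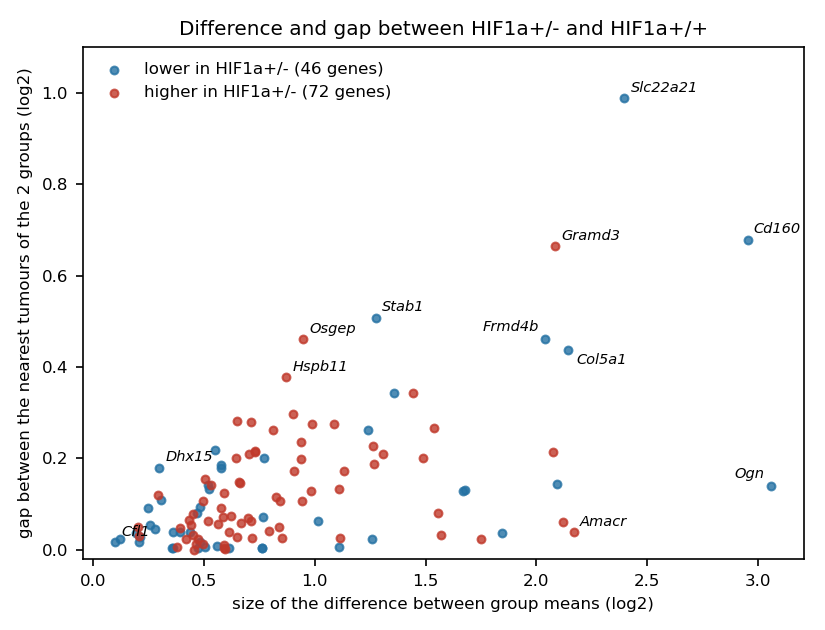
Each point is 1 of the 118 genes; the horizontal axis is the size of the difference between the HIF1a+/- and HIF1a+/+ means and the vertical axis the gap between the nearest tumours of the groups, both on log2. Most points lie under a gap of 0.2, and Slc22a21 (0.99), Cd160 (0.68), Gramd3 (0.67) and Stab1 (0.51) have the widest gaps.

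Single tumours set the edge unevenly. HIF1a+/+ tumour 5 was the nearest of its group to the HIF1a+/- tumours in 27 of the 72 higher genes, and HIF1a+/- tumour 4 in 22 of these and in 14 of the 46 lower genes. Without HIF1a+/+ tumour 5 the higher genes numbered 161, and without HIF1a+/- tumour 4 the lower ones numbered 116. For 50 of the 118 genes the array carried a further expressed probe set, 66 in all, and 62 of these had the same sign of difference. Of the 3774 such probe sets of the other expressed genes, 75.9% did. The 118 genes were chosen for a difference in these same tumours, which favours the same sign, so nothing is read from the contrast. In 15 genes, 16 of those 66 probe sets separated the groups as well.

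Stab1 and Dhx15, the genes that passed the test, were among the lower genes. Stab1 encodes stabilin-1, a scavenger receptor of macrophages and sinusoidal endothelium. Its levels were 7.61, 7.53, 7.62, 7.82 and 8.09 in HIF1a+/- tumours 1 to 5 and 9.22, 8.60, 8.70, 9.24 and 9.30 in HIF1a+/+ tumours 1 to 5. All of the former lay below all of the latter, with a gap of 0.51, and the difference was -1.28 on log2 (2.42-fold lower, SE 0.17, limma adjusted p = 0.0499). In the HIF1aKI/+ tumours Stab1 read 7.61, 8.0, 7.80 and 8.24, also below every HIF1a+/+ tumour. Dhx15, a DEAH-box helicase that takes apart the spent spliceosome, is highly expressed, and its change was small: 13.29, 13.29, 13.22, 13.33 and 13.27 in HIF1a+/- against 13.68, 13.53, 13.54, 13.64 and 13.51 in HIF1a+/+ tumours, a difference of -0.30 (SE 0.04, adjusted p = 0.0499). Its 4 HIF1aKI/+ levels (13.49, 13.44, 13.49 and 13.44) fell between the groups and touched neither. A second Dhx15 probe set differed by -0.23 with overlapping groups.

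Both calls were at the threshold. Over the alternatives tried, Stab1 differed by -1.38 to -1.20 with an adjusted p between 0.0373 and 0.228. Dhx15 differed by -0.34 to -0.26, and its adjusted p lay between 0.0373 and 0.464. The value of 0.464 came from the limma fit on only genes at or above the boundary, where the SE of Dhx15 was 0.10. Leaving out any of the 14 arrays ended both calls.

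Among the higher genes the smallest p belonged to Hspb11, which encodes IFT25, a protein of the transport particles that run along cilia. It read 11.33, 11.79, 11.65, 12.10 and 11.90 in HIF1a+/- tumours and 10.85, 10.79, 10.91, 10.92 and 10.95 in HIF1a+/+ tumours, where the spread was very small. The difference was 0.87 (SE 0.12, adjusted p = 0.0569), and without HIF1a+/- tumour 1, the lowest of its group, it passed the test (adjusted p = 0.00999). The HIF1aKI/+ tumours read 11.24, 11.34, 11.13 and 11.55, above every HIF1a+/+ tumour. The other probe set of Hspb11 lay below the boundary for expression (means 2.86 and 3.32, lower in HIF1a+/- tumours), and with both averaged the difference was 0.21 (adjusted p = 0.937).

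Because HIF-1 acts through a short sequence near its targets, the bases before the transcription starts of these leading genes are shown with each ACGTG or GCGTG, on either strand, in capitals. They come from RefSeq (GRCm38.p6), run 5′ to 3′ along the strand of the gene, and leave out bases inside the annotated gene. The windows are chr14:31168652-31168891 for Stab1 (minus strand), chr5:52190547-52190796 for Dhx15 (minus strand) and chr4:107253442-107253592 for Hspb11 (plus strand).
Stab1: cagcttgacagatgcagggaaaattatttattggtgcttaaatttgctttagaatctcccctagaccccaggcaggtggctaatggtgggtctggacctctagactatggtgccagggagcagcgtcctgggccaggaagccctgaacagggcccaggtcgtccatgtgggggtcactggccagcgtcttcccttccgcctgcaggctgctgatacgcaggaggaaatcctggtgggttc
Dhx15: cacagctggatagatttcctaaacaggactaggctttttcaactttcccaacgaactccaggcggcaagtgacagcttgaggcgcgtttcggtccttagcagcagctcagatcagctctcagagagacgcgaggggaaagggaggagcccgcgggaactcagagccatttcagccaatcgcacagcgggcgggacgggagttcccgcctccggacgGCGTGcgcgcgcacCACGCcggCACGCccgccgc
Hspb11: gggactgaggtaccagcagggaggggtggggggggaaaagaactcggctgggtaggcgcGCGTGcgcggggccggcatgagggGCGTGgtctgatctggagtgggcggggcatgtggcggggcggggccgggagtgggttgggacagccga
The Stab1 window of 240 bases held 0 such motifs, the Dhx15 window of 250 bases held 3 and the Hspb11 window of 151 bases held 2, with 4 in the full 250 bases before that Hspb11 start. Over the 250 bases before a start, 28 of 53 windows of the lower genes held at least 1 match (52.8%; 41 of 46 genes had a window), and 49 of 70 windows of the higher genes did (70.0%; 56 of 72 genes). The share over all expressed genes was 57.2% of 7573 windows, and over all 32851 windows held by RefSeq 38.6%. A match is a run of letters and not a measured binding site.

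**Figure D3:**
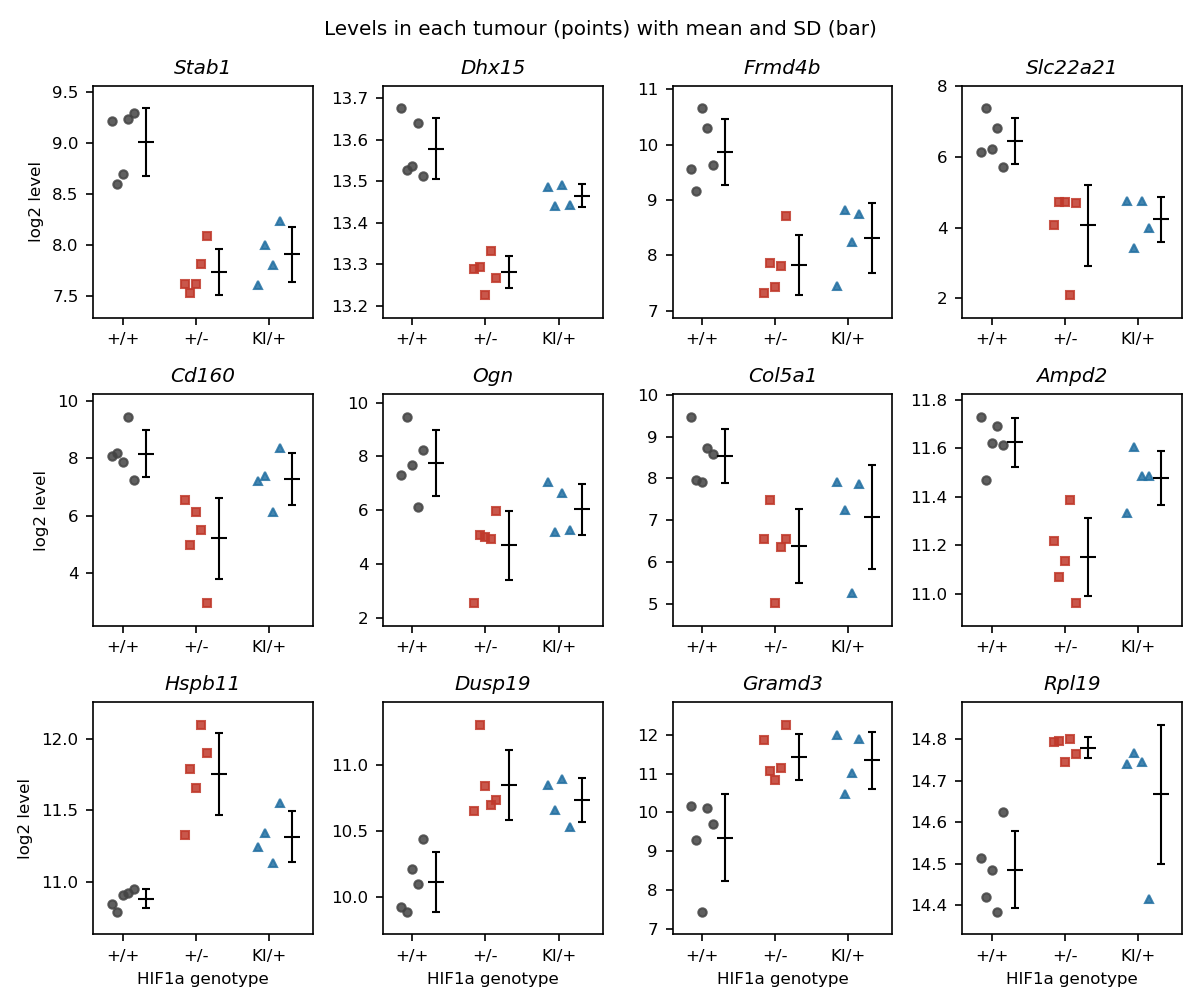
Log2 level of 12 of the 118 genes in each tumour (points), by HIF1a genotype, with the mean and SD of each group (bar) and a vertical scale of its own for each gene. In every panel the HIF1a+/+ and HIF1a+/- points are apart, and the HIF1aKI/+ points lie with the HIF1a+/- points for Stab1 and Gramd3, between the groups for Dhx15, and across both for Cd160 and Rpl19.

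Of the lower genes, 5 belong to the marker lists of cells other than T lineage cells. Fibroblast and matrix genes supplied Ogn, Col5a1 and Fn1, which encode the small proteoglycan osteoglycin, a chain of type V collagen and fibronectin. Col5a1 read 6.55, 7.48, 5.01, 6.37 and 6.55 in HIF1a+/- against 9.48, 7.96, 7.92, 8.72 and 8.59 in HIF1a+/+ tumours, a difference of -2.14 (SE 0.57), and its other expressed probe set also separated the groups. Ogn had the largest difference of all 118 genes, -3.06 (SE 0.72). It read 2.54, 5.06, 5.01, 4.94 and 5.97 against 7.32, 9.48, 7.67, 6.11 and 8.23, so that the HIF1a+/- mean of 4.70 was below the boundary for expression. For Fn1 the groups nearly met (9.74 in HIF1a+/- tumour 5, 9.77 in HIF1a+/+ tumour 3), with a difference of -1.85. None of these passed the test (adjusted p 0.408 to 0.474). With the probe sets of each gene averaged, those below the boundary included, the differences were -1.54 for Ogn, -1.32 for Col5a1 and -1.08 for Fn1. The whole list pointed the same way, with 20 of 21 expressed members lower and a median difference of -0.95 against 0.01 for all expressed genes. Of these, 3 were without overlap and 0 passed the test, and over all expressed genes 0.642% were lower without overlap. Of the 24 measured members, expressed or not, 10 were lower at an unadjusted p under 0.05, beside 3.64% of all measured genes. The summed level of the list ran from 15.5 to 15.8 in HIF1a+/- and from 15.55 to 16.4 in HIF1a+/+ tumours, with means that differed by -0.45. The part of fibroblast and matrix content in these differences was not tested. Adipocyte genes were also lower on average: all 7 measured and all 4 expressed had lower HIF1a+/- means, with a median of -0.76 over the expressed. Of the 7, 2 were lower at an unadjusted p under 0.05, beside 3.64% of all measured genes. Among the expressed, 0 were without overlap and 0 passed the test. Their summed level ran from 11.99 to 13.2 in HIF1a+/- and from 12.1 to 13.97 in HIF1a+/+ tumours. Adipoq, the adipocyte hormone adiponectin, was at most 2.03 in HIF1a+/- tumours and reached 6.57 in HIF1a+/+ tumour 3, and Car3 read 2.09 to 6.86 against 2.35 to 11.4. The part of fat tissue in these differences was not tested. In tissue pieces, fewer cells of a type and less RNA per cell cannot be told apart.

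Stab1 was 1 of 15 expressed macrophage genes, and the others overlapped. Of the 15, 13 had a lower HIF1a+/- mean, and the median difference was -0.53. Of the 21 measured macrophage genes, expressed or not, 6 were lower at an unadjusted p under 0.05, beside 3.64% of all measured genes. The summed macrophage level overlapped, from 15.2 to 15.9 in HIF1a+/- and from 15.3 to 16.2 in HIF1a+/+ tumours. Csf1r, the receptor that macrophages need to live, read 12.45 to 13.39 in HIF1a+/- and 13.18 to 13.89 in HIF1a+/+ tumours. Endothelium is the other home of stabilin-1. Of its 17 measured markers 7 were expressed, 5 of them with lower HIF1a+/- means and 0 without overlap (median -0.11). Another 7, Cdh5 and Kdr among them, were below the boundary in all 14 tumours. Of the 17, expressed or not, 2 were lower at an unadjusted p under 0.05. Pecam1 read 6.45 to 8.98 in HIF1a+/- and 5.85 to 7.87 in HIF1a+/+ tumours, and the summed level 9.78 to 10.8 and 9.92 to 10.9. The parts of macrophage and endothelial content in the Stab1 difference were not tested. Cd160, a receptor of NK cells and cytotoxic T cells, had the second largest difference, with 6.56, 4.97, 6.12, 5.49 and 2.93 in HIF1a+/- against 8.07, 8.19, 7.86, 9.46 and 7.24 in HIF1a+/+ tumours (-2.95, SE 0.67, adjusted p = 0.408). Its other expressed probe set separated the groups as well. The remaining 3 expressed NK and cytotoxic genes, Prf1, Gzma and Tbx21, had higher HIF1a+/- means (by 0.53, 0.90 and 0.15) with overlapping groups.

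RNA helicases of the DEAD and DEAH families, which remodel RNA in splicing and ribosome assembly, gave 3 of 34 expressed members, all lower, beside a median difference of -0.11 over the family and 0.642% of all expressed genes that were lower without overlap. Where a list or family gave 1 gene, nothing particular to it is read from that count, since 1.65% of all expressed genes separated the groups in either direction. Dhx15 is described above. Ddx54 read 12.64, 12.68, 13.03, 13.11 and 13.07 in HIF1a+/- against 13.20, 13.26, 13.41, 13.46 and 13.61 in HIF1a+/+ tumours (-0.48, SE 0.13). A further probe set of Ddx54 differed by -0.68 with overlapping groups. Ddx10 differed by -0.77 (SE 0.23), with a gap of 0.20. Noc4l, a nucleolar protein of the small ribosomal subunit pathway, differed by -0.58 (SE 0.13), although none of the 27 genes of the Myc and ribosome biogenesis list, which does not hold it, separated the groups (23 had lower means, median -0.35). Polr3gl, a subunit of RNA polymerase III, differed by -1.26 and had a gap of 0.02. Rbbp6, which acts in the cutting of messenger RNA ends, differed by -0.51 on its brightest probe set, but the sign turned (0.16) when its 3 probe sets were averaged. Fam98a, an RNA-binding protein, differed by -0.31. Other RNA-binding proteins among the lower genes, named after their values were seen, were Syncrip (-0.36), G3bp2 (-0.28), Grsf1 (-0.48) and Cbll1 (-0.47).

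Several lower genes encode enzymes. Ampd2, which deaminates AMP, read 11.22, 11.07, 11.14, 11.39 and 10.96 in HIF1a+/- against 11.73, 11.47, 11.62, 11.69 and 11.61 in HIF1a+/+ tumours (-0.47, SE 0.08, adjusted p = 0.207). Its relative Ampd3, named after its values were seen, differed by -1.36 with a wider spread. Mitochondrial malate dehydrogenase, Mdh2, read 13.90, 13.81, 13.86, 13.78 and 13.76 against 14.17, 14.04, 13.99, 14.05 and 14.09, a difference of -0.25 that its second probe set repeated (-0.24, also without overlap). Dlat, the acetyl-transferring subunit of pyruvate dehydrogenase, differed by -0.61, with a gap of 0.0038. Those were 2 of the 20 expressed genes of the tricarboxylic acid cycle list, of which 17 had lower means (median -0.18) and 0 passed the test. Over all expressed genes, 0.642% were lower without overlap. The lysosomal enzyme β-glucuronidase, Gusb, differed by -0.55 (SE 0.16) with a gap of 0.22, and by -0.31 with its probe sets averaged. Hadh (-0.21), which acts in fatty acid oxidation, the mitochondrial protein Chchd10 (-1.24), the mitochondrial chaperone Clpx (-0.58) and the lipoprotein receptor Scarb1 (-1.11) were also lower in every HIF1a+/- tumour, and are named after their values were seen.

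Frmd4b, a FERM domain protein, separated the groups on all 3 of its expressed probe sets. It read 7.32, 7.85, 7.43, 7.81 and 8.71 in HIF1a+/- and 9.56, 9.17, 10.66, 10.30 and 9.63 in HIF1a+/+ tumours (-2.04, SE 0.36, adjusted p = 0.207). The others differed by -2.40 and -1.39, and with its probe sets averaged it passed the test (adjusted p = 0.0494). The carnitine transporter gene Slc22a21 had the widest gap, 0.99, with 4.06, 4.74, 4.74, 2.09 and 4.69 against 6.14, 7.38, 6.22, 6.84 and 5.73. All of its HIF1a+/- levels, and their mean of 4.06, were below the boundary. Slc41a2, a magnesium transporter, crossed the same boundary (means 3.87 and 5.96). Among the other lower genes was Adam10, the protease that cuts Notch receptors (-0.36), 1 of 17 expressed genes of the Notch list. Of those 17, 16 had lower HIF1a+/- means (median -0.36) and 0 passed the test. Of the 25 measured, expressed or not, 8 were lower and 2 higher at an unadjusted p under 0.05, beside 3.64% and 4.3% of all measured genes. Ctnnb1, β-catenin of the Wnt pathway, was also lower (-0.19). Its groups were 0.04 apart, and its difference was -0.04 with its probe sets averaged. Aspm of the mitotic spindle differed by -0.52, the clamp loader subunit Rfc1 by -0.26, the membrane protein Tmbim1 by -1.67, and Aen, an exonuclease gene induced by p53, by -0.56 (-0.32 with probe sets averaged), against a median of 0.39 for the 13 expressed p53 targets.

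Not yet named among the lower genes are Sash1 (-1.01), Zscan21 (-0.77), Cemip2 (-0.76), Fam126a (-0.76), Kpna4 (-0.52), Ywhag (-0.44), Snrk (-0.39), Cct6a (-0.36), Fancm (-0.21), Pebp1 (-0.12) and Cfl1 (-0.10), given to complete the 46. Cfl1, the actin-cutting protein cofilin, shows how little is needed at a high level: 14.73, 14.69, 14.68, 14.71 and 14.68 in HIF1a+/- against 14.86, 14.77, 14.74, 14.83 and 14.78 in HIF1a+/+ tumours. A second Cfl1 probe set had the opposite sign (0.10).

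Turning to the higher genes, none passed the test, and the lowest adjusted p after that of Hspb11 was 0.351. That was Dusp19, a dual-specificity phosphatase, with 10.65, 11.30, 10.84, 10.70 and 10.73 in HIF1a+/- against 9.93, 9.89, 10.21, 10.10 and 10.44 in HIF1a+/+ tumours (0.73, SE 0.14). Hspb11 and Cdk20, a kinase of ciliary signalling, were 2 of 19 expressed genes of the intraflagellar transport and cilium list. Of the 19, 14 had higher means, with a median of 0.35 and 0 past the test. Of the 21 measured, expressed or not, 4 were higher at an unadjusted p under 0.05, beside 4.3% of all measured genes. Over all expressed genes, 1.0% were higher without overlap. Cdk20 read 6.71, 5.24, 6.36, 5.88 and 8.24 against 3.79, 4.91, 3.70, 4.63 and 5.03, so its HIF1a+/+ mean of 4.41 was below the boundary. Mapk7, which encodes the kinase ERK5, differed by 1.09 (SE 0.27) and was 1 of 26 expressed genes of the mitogen-activated kinase family. Mcrip1, a corepressor-binding protein regulated by such kinases, differed by 0.65 (SE 0.14) and Pip4k2a, a phosphoinositide kinase, by 0.50 (SE 0.12).

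The largest higher differences were in genes of varied function. Gramd3, a GRAM domain protein, read 11.86, 11.06, 10.83, 11.14 and 12.26 in HIF1a+/- against 10.16, 9.30, 7.44, 10.13 and 9.70 in HIF1a+/+ tumours (2.08, SE 0.53). Its other probe set differed by 2.58 with overlapping groups. Amacr, a racemase of branched fatty acid oxidation, had the largest difference (2.17, SE 0.79), but HIF1a+/+ tumour 3 stood at 3.35, the other 4 at 7.14 to 8.28, and without that tumour the difference was 1.32. Syt13, of the synaptotagmin family, differed by 1.75, the receptor gene Tnfrsf13b, which encodes TACI, by 1.57, Cdo1, cysteine dioxygenase, by 1.56, C2cd2 by 1.54, Hint2, a mitochondrial nucleotide hydrolase, by 1.49 and Slc43a3, a nucleobase transporter, by 1.44. The gaps of these 6 genes ran from 0.02 (Syt13) to 0.34 (Slc43a3).

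Some higher genes were abundant and tight. Rpl19, a protein of the large ribosomal subunit, read 14.79, 14.80, 14.75, 14.80 and 14.76 in HIF1a+/- against 14.51, 14.42, 14.48, 14.38 and 14.62 in HIF1a+/+ tumours (0.29, SE 0.07, adjusted p = 0.408). It was 1 of 41 expressed cytoplasmic ribosomal protein genes, beside 1.0% of all expressed genes that were higher without overlap, and the family's median difference was 0.02. Eif3h, a subunit of an initiation factor that recruits the ribosome, differed by 0.21 (SE 0.05) on its brightest probe set and by 0.07 when its probe sets were averaged. Its family of 42 expressed initiation factor genes had a median of -0.07 and no other member without overlap. Atp5g2, a rotor subunit of ATP synthase, differed by 0.39 (1 of 17 in its family, whose median was -0.002).

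The other higher genes have varied roles. Irf1, a transcription factor induced by interferon, read 10.61, 11.07, 10.57, 11.21 and 10.78 in HIF1a+/- against 10.10, 10.31, 10.10, 9.74 and 9.94 in HIF1a+/+ tumours (0.81, SE 0.30, adjusted p = 0.54). It was 1 of 18 expressed interferon-induced genes, of which 17 had higher means (median 0.76). Of the 24 measured, expressed or not, 6 were higher at an unadjusted p under 0.05, beside 4.3% of all measured genes. Mlx, the partner of glucose-sensing transcription factors, differed by 0.70 (SE 0.15), and Osgep, which modifies transfer RNA, by 0.95 (SE 0.22) with a gap of 0.46. Snapc3, needed to transcribe small nuclear RNA genes, differed by 0.66 (SE 0.15) on its brightest probe set. Its other probe sets differed by 0.87 and -0.06, both with overlapping groups. Zfp35 was 1 of 104 expressed Zfp zinc finger genes (0.42). Dvl2, a relay of Wnt receptors, differed by 0.94, opposite in sign to Ctnnb1, and 11 of the 12 expressed genes of the Wnt and Tcf list had lower means. The glutathione-binding protein Lancl1 differed by 0.98, the membrane remodelling protein Retreg2 by 0.59, the vesicle fusion protein Use1 by 0.62, the dynactin subunit Dctn6 by 0.51 (0.31 with probe sets averaged), the nucleotidase Cant1 by 0.53, Pgls of the pentose phosphate pathway by 0.59 (0.36 without HIF1a+/- tumour 5), and the less studied BC031181 by 0.71, Fam149b by 0.99 and Tmem101 by 0.79.

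To complete the 72, the remaining 40 higher genes had differences from 0.20 (Paip2) to 2.12 (Dnajc28). Dnajc28, a chaperone-like gene named after its values were seen, read 7.64, 5.88, 6.72, 6.65 and 7.62 against 4.77, 3.21, 5.82, 4.86 and 5.24, with a HIF1a+/+ mean below the boundary (4.78). Those of 0.9 or more were Lpxn (1.31), Nat9 (1.27), Narf (1.26), Camk1d (1.13), Ramp1 (1.11), Tgds (1.11), Wrap73 (0.94), Tubb2a (0.94), Spice1 (0.91) and Pnpla7 (0.90). Between 0.6 and 0.9 lay Sh3bp5l, Ciao2b, Prpsap2, Lsm10, Bcas3, Znrf1, Fbh1, Stat5b, Leprotl1, Ubap1, Zmym1, Cdkn2aipnl and Wac, and below that Papolg, Derl2, Ssbp2, Ccdc43, Srfbp1, Gps1, Pank3, Ubxn1, Nkiras2, Gps2, Crlf3, 9530068E07Rik, Tbc1d20, Washc3, Ap1g1 and Paip2. Stat5b, which carries cytokine signals to the nucleus in T cells, read 11.21, 10.67, 11.03, 11.06 and 11.67 in HIF1a+/- against 10.11, 10.47, 10.48, 10.60 and 10.49 in HIF1a+/+ tumours (0.70). Ccdc43 separated the groups (11.00 to 11.40 against 10.20 to 10.91) with an unadjusted p of 0.46, because the spread in the model includes HIF1aKI/+ tumour 1, which read 6.39.

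Many lists that bear on hypoxia and on T cell tumours held no gene without overlap, and at a share of 1.65% over all expressed genes a count of 0 in lists of these sizes is near the background. These were the 5 expressed HIF pathway components, the 18 hypoxia-induced genes, the 18 genes of glycolysis, the 39 cell cycle genes, the 19 DNA repair genes, the 15 genes of T cell receptor signalling, the 13 T lineage markers, the 71 mitochondrial ribosomal protein genes, the 38 complex I subunits and the 47 proteasome subunits. The median difference was -0.13 for the hypoxia-induced genes. Of the 23 measured, expressed or not, 1 was lower and 1 higher at an unadjusted p under 0.05. For glycolysis the median was -0.15, with 16 of 18 means lower, 1 of them at that level. Of the 118 genes, 28 belonged to any of the 33 pathway and cell lists or the 33 gene families examined, and 90 to none. Thymic epithelial markers were higher in HIF1a+/- tumours in all 7 expressed members (0 past the test), but overlapped in every one. Of the 13 measured, expressed or not, 6 were higher at an unadjusted p under 0.05, beside 4.3% of all measured genes.

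In the HIF1aKI/+ tumours, most of these genes lay between the other genotypes. The HIF1aKI/+ mean stood between the HIF1a+/- and HIF1a+/+ means in 39 of the 46 lower and 57 of the 72 higher genes, past the HIF1a+/- mean in 4 and 9, and past the HIF1a+/+ mean in 3 and 6. On a scale from 0% at the HIF1a+/+ mean to 100% at the HIF1a+/- mean, its median position was 59.2% for lower (quartiles 34.1% and 76.0%) and 63.9% for higher genes (34.7% and 84.7%). It was nearer the HIF1a+/- mean in 28 lower genes (60.9%) and 46 higher genes (63.9%), beside 48.2% and 56.5% of all expressed genes with a lower or higher HIF1a+/- mean. The HIF1a+/+ arrays chose the genes and also anchor this scale, so the shares describe where the tumours stood and are not a test. No gene passed the test between HIF1aKI/+ and HIF1a+/+ tumours or between HIF1a+/- and HIF1aKI/+ tumours (0 of 10254 in each). At an unadjusted p under 0.05 limma gave 167 lower (1.63%) and 279 higher genes (2.72%) in the former and 169 (1.65%) and 145 (1.41%) in the latter. Among the 118 genes 51 and 27 were at that level in either direction, beside 4.95% and 3.45% of expressed genes, in comparisons that share arrays with the choice.

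**Figure D4:**
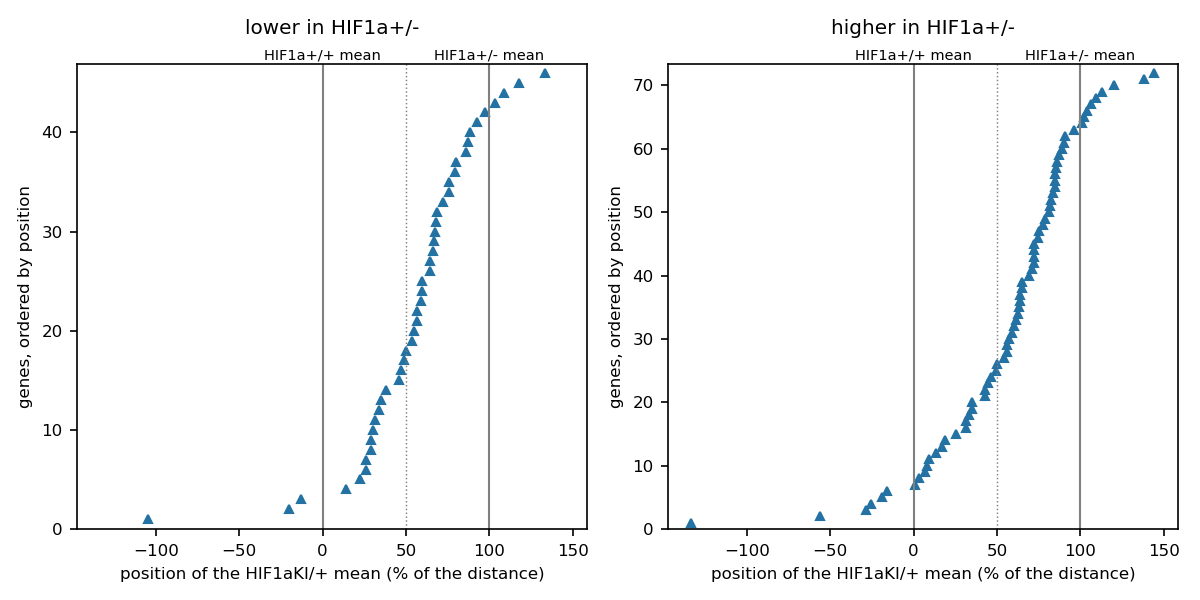
Position of the HIF1aKI/+ mean of each of the 46 lower (left) and 72 higher genes (right), as a percentage of the distance from the HIF1a+/+ mean (0) to the HIF1a+/- mean (100), genes ordered by position. Most points lie between the solid lines, with 3 lower and 6 higher genes left of 0 and 4 and 9 right of 100.

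In 22 genes, 7 lower and 15 higher, all 4 HIF1aKI/+ tumours lay beyond every HIF1a+/+ tumour on the HIF1a+/- side. The lower ones were Stab1, Dhx15, Frmd4b, Slc22a21, Col5a1, Gusb and Grsf1. The higher ones were Hspb11, Dusp19, Mlx, Retreg2, Pip4k2a, Mapk7, Gramd3, Eif3h, Cant1, Stat5b, Znrf1, Ciao2b, Spice1, Gps1 and Gps2. Over all expressed genes the HIF1aKI/+ tumours lay below every HIF1a+/+ tumour in 47 (0.656%) and above in 72 (1.0%), and since the 118 genes were chosen on the same HIF1a+/+ arrays, nothing is read from the higher share among them. Gramd3 read 12.01, 10.46, 11.02 and 11.90 in HIF1aKI/+ tumours, a difference of 2.0 from the HIF1a+/+ mean (SE 0.56, adjusted p = 0.984) and within the HIF1a+/- range but for the lowest tumour. Slc22a21 read 4.75, 3.44, 4.76 and 4.00, all below the boundary as in HIF1a+/- tumours. Frmd4b read 7.44, 8.83, 8.24 and 8.74, and its HIF1aKI/+ mean differed from the HIF1a+/+ mean by -1.55 (SE 0.38, adjusted p = 0.984). Cant1 (10.63, 10.67, 11.22 and 10.34) and Mapk7 (7.86, 7.85, 8.95 and 7.97) had HIF1aKI/+ means past the HIF1a+/- mean, with HIF1a+/- minus HIF1aKI/+ differences of -0.24 and -0.07.

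In 8 of the non-overlapping genes all 4 HIF1aKI/+ tumours lay beyond every HIF1a+/- tumour on the HIF1a+/+ side. These were Dhx15, Glis2 and Rfc1 among the lower and Hint2, Use1, Dctn6, Fam149b and Pgls among the higher genes. Over all expressed genes the HIF1a+/- tumours lay below every HIF1aKI/+ tumour in 32 (0.447%) and above in 23 (0.321%). Since the non-overlapping genes were chosen on the same HIF1a+/- arrays, nothing is read from the higher share among them. Glis2, a zinc finger transcription factor, had the largest difference between HIF1a+/- and HIF1aKI/+ means among the 8. It read 6.95, 7.75, 7.43, 6.62 and 7.67 in HIF1a+/-, 9.43, 7.88, 9.26, 9.55 and 8.69 in HIF1a+/+, and 9.57, 9.14, 8.62 and 9.85 in HIF1aKI/+ tumours. The HIF1a+/- mean was below the HIF1a+/+ mean (-1.68, SE 0.35) and below the HIF1aKI/+ mean (-2.01, SE 0.38), with an adjusted p of 0.408 for the former and no pass for the latter. Hint2 read 11.70, 12.11, 11.15, 11.60 and 11.68 in HIF1a+/- tumours, 9.97, 9.75, 9.66, 10.47 and 10.95 in HIF1a+/+ and 9.09, 9.95, 10.96 and 10.82 in HIF1aKI/+ tumours, and the means of the last 2 groups differed by 0.05. Use1 had a HIF1aKI/+ minus HIF1a+/+ difference of 0.04, with a further probe set that also separated HIF1a+/- from HIF1a+/+. Dctn6, Fam149b and Pgls had HIF1aKI/+ means past the HIF1a+/+ mean (-0.10, -0.26 and -0.33). Dhx15 alone met both conditions, its HIF1aKI/+ levels lying in the space between the groups.

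**Figure D5:**
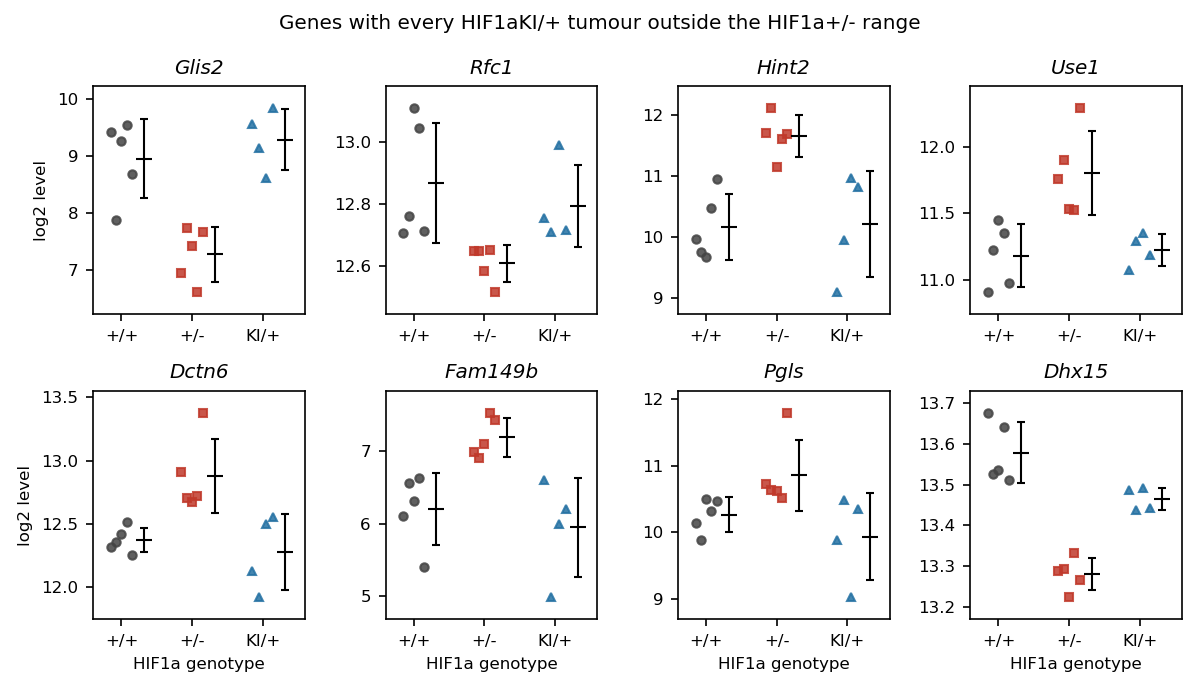
Log2 level in each tumour (points) with group mean and SD (bars) for the 8 genes in which every HIF1aKI/+ tumour lay outside the HIF1a+/- range on the HIF1a+/+ side; each panel has its own vertical scale. The HIF1aKI/+ points share the range of the HIF1a+/+ points in part for 7 genes, and for Dhx15 (13.44 to 13.49) they lie below it (13.51 to 13.68).

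The remaining genes were divided among the HIF1aKI/+ tumours. In 91 of the 118, from 1 to 3 of the 4 lay beyond the HIF1a+/+ range on the HIF1a+/- side, and in 5 (Glis2, Rfc1, Use1, Fam149b and Pgls) none did. Counted over values, 111 of 184 for the lower genes and 184 of 288 for the higher genes lay beyond it. HIF1aKI/+ tumours 1, 3, 4 and 5 gave 28, 27, 29 and 27 of the 46 lower genes, a near even share. For the 72 higher genes they gave 49, 32, 54 and 49, with tumour 3 behind the rest. Cd160 was mixed in this way, at 7.22, 7.38, 6.13 and 8.37, and Rpl19 read 14.74, 14.77 and 14.75 in tumours 1, 3 and 4, above every HIF1a+/+ tumour, and 14.42 in tumour 5. Mdh2 read 13.93, 13.72, 13.62 and 14.05, and its HIF1aKI/+ and HIF1a+/- means differed by 0.01. Fancm, a DNA repair helicase named after its values were seen, was higher in HIF1aKI/+ than in HIF1a+/+ tumours on average (0.21) although lower in HIF1a+/- tumours (-0.21).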

How the data were processed

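The deposited table holds log2 expression values of 18264 probe sets on 14 Affymetrix arrays, 1 per tumour. Per the labels' protocols, tissue RNA was extracted with Trizol and RNeasy columns and 100 ng was amplified from poly(T) and random primers. Per the submitters' processing notes the authors used GCRMA and Partek; versions, settings, array batch and genome build are not given in the sources used here. GCRMA models background from probe sequence, which compresses low levels into a mode near 2.26.

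The platform annotation gave 16602 probe sets 1 gene, 603 several and 1059 none; 16583 of the first matched a RefSeq gene by Entrez identifier. A gene was read on its probe set of highest mean, and 3999 of 10254 genes had more than 1. Genotype means were fitted on all 14 arrays with lmFit and eBayes of limma 3.58.1 (R 4.3.3), two-sided, with Benjamini-Hochberg adjustment over all genes; ± values are SDs and SE is that of the model. The procedure was tested on simulated data. Single values were compared by exact permutation tests. Nothing in the labels says whether mice shared a litter or cage, so p-values measure the spread between these tumours.

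The genes named were, among non-overlapping expressed genes, those past the threshold, those of smallest p (12 per direction) and largest difference with both means above the boundary (6), those with every HIF1aKI/+ tumour beyond either group (6 each), and up to 4 of each list or family discussed; others are said to be named after their values were seen. The lists and members were chosen with earlier results of these data known.

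Same-numbered HIF1a+/- and HIF1a+/+ tumours did not deviate together (correlations -0.109 to 0.05), and the main model fitted no pairing. The highest correlation of same-numbered tumours was 0.141, between HIF1aKI/+ and HIF1a+/+ tumours 3. Such correlations over all genes do not show whether mice shared a litter or an array batch. Alternatives varied scaling, probe set summary, level filter, gap, eBayes options, array weights, arrays fitted, replicate block, a Y-linked covariate and each array left out.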

Additional observations from a re-analysis of the deposited data

Results flagged for a closer look

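Single tumours stood far from the rest of their genotype in 11 of the 177 groups examined (59 named genes in 3 genotypes) by Dixon's test, which flags about 1 group in 20 by chance. Among HIF1a+/+ tumours, Amacr read 3.35 in tumour 3, the others lying between 7.14 and 8.28. Among HIF1a+/- tumours, tumour 5 had the lowest Ctnnb1 (13.33) and the highest Pgls (11.79), tumour 2 the highest Dusp19 (11.3), tumour 1 the lowest Lancl1 (11.01) and tumour 4 the lowest Slc22a21 (2.09). In the HIF1aKI/+ group, tumour 4 was highest for Mapk7 (8.95), Rfc1 (12.99) and Tmem101 (10.06). Tumour 5 of that group was lowest for Rpl19 (14.42) and tumour 3 lowest for Snapc3 (9.48). For Lancl1 the flagged tumour is the HIF1a+/- tumour nearest the HIF1a+/+ group, so the other 4 lay further from that group. For Amacr, Slc22a21, Ctnnb1, Dusp19 and Pgls the flagged tumour lies on the side away from the other group and widens the difference.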

How the results depend on the processing

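Between HIF1a+/- and HIF1a+/+ tumours 2 genes passed the test. The number was 0 with quantile normalization, arrays centred on their medians, every probe set taken singly, only genes at or above the boundary, trend, robust, only the 2 groups compared, the Y-linked covariate and the replicate block. It was 2 with array weights (Stab1 and Dhx15) and with probe sets averaged (Stab1 and Frmd4b), and 0 to 1 with each array left out, the 1 being Hspb11 without HIF1a+/- tumour 1. For HIF1aKI/+ against HIF1a+/+ tumours the count was 0 in each of these settings, the replicate block included, and 0 to 2 with an array left out (Tmem38a without HIF1aKI/+ tumour 3, Mfap2 and Rab6b without HIF1aKI/+ tumour 5, named after the fit). For HIF1a+/- against HIF1aKI/+ tumours it was 0 in each, and 0 to 1 with an array left out (Tmem38a without HIF1aKI/+ tumour 3, Hif3a without HIF1a+/+ tumour 5). The non-overlapping lower genes numbered 46, and 72 after centring, 76 with no filter on level, 9 with a gap of at least 0.2 and 63 to 116 with a tumour left out. The higher genes numbered 72, and 20 with that gap and 82 to 161 with a tumour left out; fewer tumours make separation easier by construction. Of the lower genes 40 kept their separation under quantile normalization, 43 under centring, 28 with probe sets averaged and 24 under all 3, and of the higher genes 56, 49, 55 and 32. With probe sets averaged the difference of Hif1a was 0.012 and that of Rbbp6 0.16, both of opposite sign. Over all named genes and alternatives 1367 values kept their direction and side of the threshold, 45 lost and 2 gained significance and 2 changed sign; where no construction is named, the cause was not tested. The replicate block ended both calls of the main fit, those of Stab1 (limma adjusted p = 0.0871) and Dhx15 (limma adjusted p = 0.125).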

Other observations

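A few of the 118 genes are next to each other in the order of expressed genes along the chromosomes. Mapk7 and Prpsap2, a subunit that binds phosphoribosyl pyrophosphate synthetase, were both higher in every HIF1a+/- tumour, as were Dctn6 and Leprotl1, and Cct6a and Gusb were both lower. Lancl1 and Fn1 are neighbours too, but Lancl1 was higher (0.98) and Fn1 lower (-1.85). These are 4 neighbouring pairs among 118 genes, given as a description of these tumours. The number of such pairs among as many genes picked at random was not worked out, so nothing is read from the count. On some chromosomes, picked after the values were seen, the windows came from genes of the same direction. Of the windows before a start, those on chromosome 11 were all from higher genes, such as Bcas3, Crlf3, Derl2, Dvl2, Irf1 and Narf. Windows on chromosome 5, such as those of Dhx15, Ddx54, Mdh2 and Gusb, were all from lower genes. So were windows on chromosome 9, such as those of Adam10, Ctnnb1 and Dlat. On chromosome 2 the windows came from both directions, such as those of Col5a1 (lower) and Fbh1 (higher). Genes without a window were not placed in this way. The share of all expressed genes on each chromosome was not set beside this, so nothing is read from it, and the cause was not tested.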
